A study of Mus musculus with 16 samples.

Results

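The genes described here are 10 precursors of peptides that sensory neurons release: Calca, Calcb, Tac1, Adcyap1, Gal, Npy, Sst, Nppb, Vip and Vgf. They were picked by gene symbol from a table of 36722 genes, and each of the 10 symbols matched 1 row. Polyadenylated RNA of lumbar dorsal root ganglia (DRG) was sequenced from C57BL/6 mice whose paw had been injected with 20 µl of 2% carrageenan, a seaweed polysaccharide that causes inflammatory pain. After 6 days came 1 intrathecal injection, and 6 hours after it the ganglia were collected. The groups were IL4-10 FP, a fusion of interleukin 4 and interleukin 10 in a single protein, at 1 µg (fusion protein, n = 6), IL4+IL10, the same cytokines as separate proteins, at 0.5 µg each (combination, n = 5), and PBS (vehicle, n = 5). Every group carried the carrageenan inflammation, and no uninflamed ganglia were analysed here. The age and sex of the mice, and whether a sample held the ganglia of 1 mouse, are not given in the sources used here, so the p-values measure the spread between these samples.

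Neuropeptides are cut from larger precursors in the secretory pathway, packed into dense-core vesicles and released from both ends of a sensory neuron, in the spinal cord and in the skin. The peptidergic class of nociceptors is defined by calcitonin gene-related peptide (CGRP) and substance P, which dilate vessels and carry pain signals. Galanin, neuropeptide Y and vasoactive intestinal peptide are scarce in intact rodent DRG and are known to be induced when a peripheral nerve is cut. In mice, natriuretic peptide B and somatostatin mark a small class of itch neurons, and Vgf is a precursor induced by neurotrophins and by activity.

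Values are the variance-stabilised log2 values deposited by the authors. Their transform could be inverted to whole numbers, called scaled values here; these are not read counts, and the read depth is unknown. Scaled values summed to 16.7 to 19.1 M per fusion protein library, 18.2 to 20.9 M per combination library and 17.2 to 18.7 M per vehicle library. Markers of sensory neurons were abundant, with 10 of 10 above the floor in each group and summed scaled values of 213480 to 365993 with the fusion protein, 232160 to 307104 with the combination and 230020 to 313744 with vehicle. Of these 10 markers, Rbfox3 was lower against vehicle with either treatment, and Isl1 was higher with the combination than in the other groups. The Isl1 calls were lost after quantile normalization, where combination minus vehicle was 0.12 and fusion protein minus combination -0.08. They were also lost with GC and length trends removed (0.10 and -0.11), as was the Rbfox3 call for the combination (-0.22, adjusted p = 0.057). Other calls appeared: Uchl1 was lower with the combination than with vehicle after quantile normalization (-0.39, adjusted p = 0.0238) and with trends removed (-0.34, 0.0457). After quantile normalization Uchl1 (0.40, adjusted p = 0.0347) and Prph (0.46, 0.0375) were higher with the fusion protein than with the combination. Fusion protein replicate 1 and vehicle replicate 1 stood farthest from the rest of their groups, with a root mean square deviation of 0.283 and 0.254 on the log2 scale, against a lowest value of 0.129 and 0.106 in those groups. In the combination group replicate 1 also stood farthest, at 0.242 against a lowest value of 0.138.

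The promoters of the 4 genes that rose in both treated groups, and of Sst, which passed in neither comparison with vehicle, are shown so that their starts can be compared. Each sequence is the 250 bases before the annotated start, 5′ to 3′ on the strand of the gene, from RefSeq on GRCm38.p6, where 8 of the 10 genes matched an entry and Calcb and Vgf did not. For Tac1, Nppb and Sst this start lies inside the gene as GENCODE places it. Capitals mark matches, on either strand, to the cyclic AMP response element TGACGTCA, its core TGACG (which the full element contains), the TATA box TATAAA, or the interferon-type element, GAAA and GAAA with any 2 bases between them.
Calca, chr7:114636358-114636607, minus strand: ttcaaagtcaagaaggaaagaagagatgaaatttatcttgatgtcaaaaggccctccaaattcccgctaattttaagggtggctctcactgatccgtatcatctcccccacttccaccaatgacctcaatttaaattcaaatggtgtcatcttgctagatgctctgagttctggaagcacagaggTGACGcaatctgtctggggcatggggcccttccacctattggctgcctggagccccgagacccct
Tac1, chr6:7554811-7555060, plus strand: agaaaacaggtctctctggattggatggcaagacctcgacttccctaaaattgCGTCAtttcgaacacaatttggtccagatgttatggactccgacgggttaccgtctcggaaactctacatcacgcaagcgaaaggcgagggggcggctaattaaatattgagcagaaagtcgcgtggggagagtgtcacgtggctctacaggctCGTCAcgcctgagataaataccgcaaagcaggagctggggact
Gal, chr19:3414545-3414794, minus strand: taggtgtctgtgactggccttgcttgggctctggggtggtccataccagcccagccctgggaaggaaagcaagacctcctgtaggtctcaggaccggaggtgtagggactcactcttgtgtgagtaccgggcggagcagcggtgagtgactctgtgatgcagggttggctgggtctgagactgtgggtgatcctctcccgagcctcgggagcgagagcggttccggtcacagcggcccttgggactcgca
Nppb, chr4:147985650-147985899, plus strand: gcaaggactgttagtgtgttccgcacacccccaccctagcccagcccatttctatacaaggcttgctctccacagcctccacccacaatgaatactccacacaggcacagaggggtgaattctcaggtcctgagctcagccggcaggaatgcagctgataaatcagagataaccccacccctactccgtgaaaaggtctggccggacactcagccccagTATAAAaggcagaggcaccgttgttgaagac
Sst, chr16:23890845-23891094, minus strand: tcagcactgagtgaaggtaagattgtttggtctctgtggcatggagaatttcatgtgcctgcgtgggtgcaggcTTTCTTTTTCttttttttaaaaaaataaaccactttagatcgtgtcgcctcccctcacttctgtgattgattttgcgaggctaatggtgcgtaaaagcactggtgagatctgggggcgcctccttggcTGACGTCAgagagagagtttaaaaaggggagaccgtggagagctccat

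The core TGACG was found in 5 of the 8 promoters with an entry (Calca, Tac1, Adcyap1, Sst and Vip), against 17.7% of 32817 promoter windows of the same length. In Calca it began 65 bases before the start, and Tac1 held it at 197 and 43 bases before the start on the opposite strand. Sst held the full element 48 bases before its start, which 1.55% of all windows contain. Nppb held a TATA box 31 bases before its start (12.4% of windows), and the Gal window held no match. The interferon-type element was found in 2 of the 8 promoters, Adcyap1 and Sst, against 2.97% of windows. The STAT-type letters TTCNNNGAA, and TTC and GAA with any 4 bases between them, found in 7.01% and 5.85% of windows, and TGANTCA of AP-1 (6.75%) were matched in 0 of the 8 promoters. These are matches of letters, and the absence of a match says nothing of a factor.

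Calca was by far the most abundant of the 10 genes. Per kb of exon its scaled value averaged 9580 over the 16 libraries, from 6913 to 12574, and it made up 73.9% ± 1.59 (SD, n = 6) of the summed per-kb level of the 10 genes with the fusion protein, 72% ± 2.03 (n = 5) with the combination and 70.9% ± 1.53 (n = 5) with vehicle. By the mean over all libraries, Calcb (1263 per kb) and Tac1 (1146 per kb) came next and their ranges overlapped, with Calcb above Tac1 in 10 of 16 libraries. Adcyap1 (438 per kb) stood above Nppb in 15 of 16 libraries. Below it came Nppb (282), Gal (196), Vgf (165) and Sst (125), each with a per-kb range that overlapped the one before it, and Sst lay above Npy in all 16 libraries. The order of these genes was not the same in each group: Vgf averaged 185 per kb with the fusion protein, 87.8 with the combination, below Sst at 128, and 219 with vehicle, above Nppb at 197 and Gal at 144. Npy averaged 9.28 per kb and Vip 0.716 per kb, and both lay below the filter for testing, a mean log2 value of 6.99 (a scaled value of 31.8). That left 8 genes tested among 13385.

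**Figure D1:**
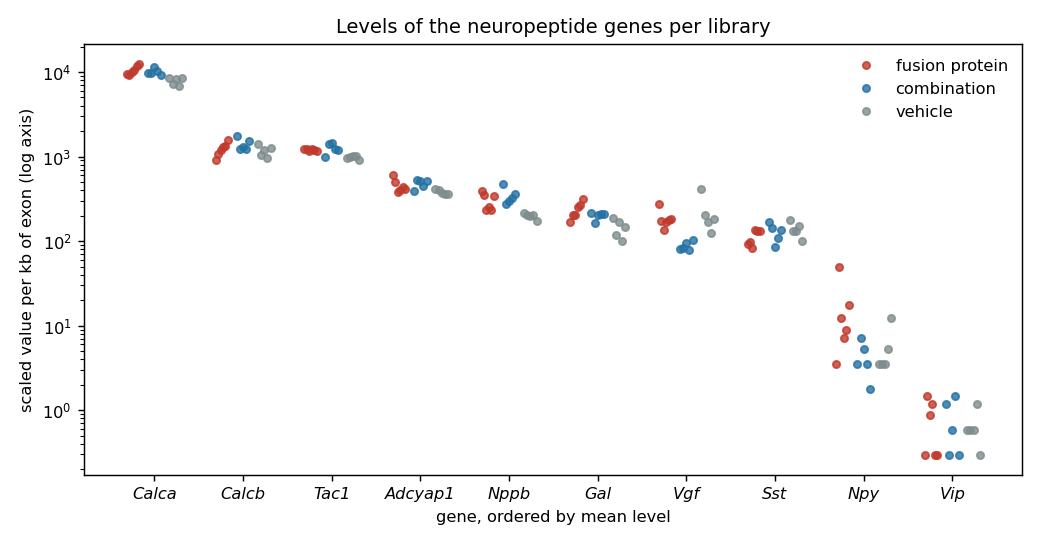
Scaled value per kb of exon (log axis) of each of the 10 genes, ordered by mean level, with 1 point per library for fusion protein (n = 6), combination (n = 5) and vehicle (n = 5). Calca lies above every other gene in all 16 libraries, and Npy and Vip lie below the other 8 genes.

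Against vehicle, 4 of the 8 tested genes rose with the fusion protein: Calca, Tac1, Gal and Nppb. None of the 8 fell, at an adjusted or an unadjusted p under 0.05 by limma. Of all 13385 genes tested in that comparison, 25.8% passed (12% rose and 13.7% fell). With the combination 5 genes rose, the same 4 and Adcyap1, and Vgf fell, where 36.5% of all genes passed (24.2% rose and 12.3% fell). The median log2 difference of the 8 genes was 0.26 with the fusion protein and 0.29 with the combination, beside -0.02 and 0.06 over all tested genes. Both comparisons share the 5 vehicle libraries. Where all libraries of a group are said below to lie apart from another group, the share of all tested genes that do so is not given. Between the treated groups 1 of the 8 genes, Vgf, was higher with the fusion protein than with the combination, where 29.5% of all genes passed (7.35% higher and 22.2% lower; with quantile normalization 975 genes were higher and 1388 lower, against 984 and 2966). Of the other 7, 0 passed at an adjusted or an unadjusted p under 0.05 by limma. In whole ganglia, fewer cells of a type and less RNA per cell cannot be told apart.

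**Figure D2:**
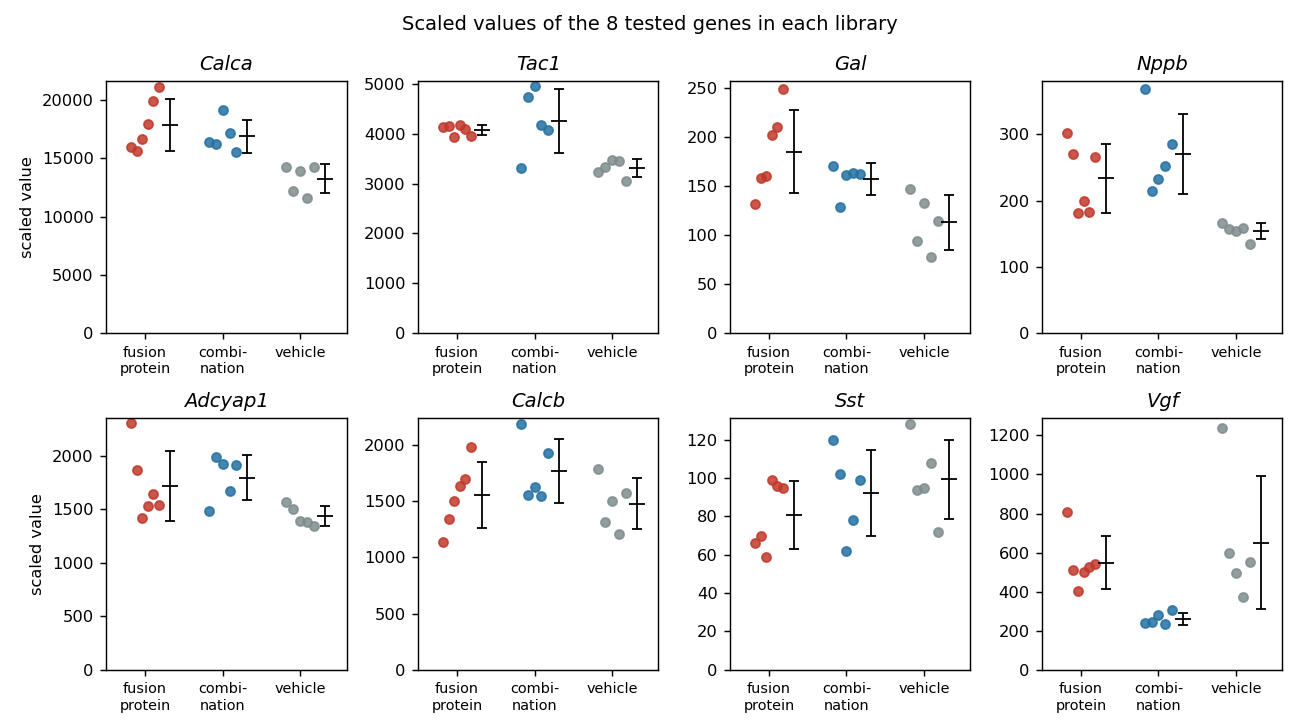
Scaled values of the 8 tested genes, 1 panel per gene with its own axis from 0, for fusion protein (n = 6), combination (n = 5) and vehicle (n = 5); points are libraries and black bars are mean ± SD. Calca and Nppb are higher in every treated library than in every vehicle library, and Vgf is lower in the 5 combination libraries than in every other library. The share of all tested genes that separate in this way is not given.

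Calca (ENSMUSG00000030669, GRCm38 chromosome 7, 114631478 to 114636357, minus strand) encodes alpha-CGRP and, by alternative splicing, calcitonin; the gene-level values do not separate the splice forms. Its scaled values ran from 15665 to 21174 with the fusion protein (median 17328, n = 6). They were 16436, 16220, 19189, 17160 and 15537 with the combination, and 14285, 12163, 13896, 11642 and 14233 with vehicle. Every treated library lay above every vehicle library. The log2 difference from vehicle was 0.43 ± 0.09 (SE) with the fusion protein (adjusted p = 0.0019) and 0.35 ± 0.09 with the combination (adjusted p = 0.00613). Between fusion protein and combination the difference was 0.08 (95% interval -0.11 to 0.26), and it did not pass.

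Calcb, the neighbouring gene on the plus strand (chromosome 7, 114718643 to 114723365), encodes beta-CGRP. It had scaled values of 1137 to 1984 (median 1570) with the fusion protein, 2190, 1557, 1622, 1549 and 1933 with the combination, and 1790, 1311, 1498, 1209 and 1575 with vehicle. These ranges overlapped throughout. The log2 difference from vehicle was 0.06 with the fusion protein (interval -0.20 to 0.31) and 0.24 with the combination (interval -0.03 to 0.51), and neither passed. Transcripts of both genes share 12 identical stretches of 50 bases, 0.715% of those of Calca and 0.952% of those of Calcb, and reads from these stretches could be counted for either gene. No exon of the 10 genes overlapped an exon of another annotated gene.

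The log2 value of Calca minus that of Calcb within each library, a measure chosen after the values were seen, does not depend on library size. It averaged 3.44 ± 0.12 (SD, n = 6) with the fusion protein and 3.07 ± 0.09 (n = 5) with vehicle, and the groups did not overlap. The exact two-sided permutation p was 0.00433, the smallest this design can give, or 0.013 adjusted over the 3 comparisons. With the combination it averaged 3.18 ± 0.28 (n = 5), from 2.84 to 3.47, which was not distinguishable from vehicle (exact permutation p = 0.437; the smallest possible is 0.00794). The fusion protein group was 0.26 above the combination group, which did not pass (exact permutation p = 0.0952, adjusted 0.143).

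Tac1 (ENSMUSG00000061762, chromosome 6, 7554879 to 7565834) encodes the precursor of substance P and neurokinin A. Its scaled values lay within 3930 to 4185 with the fusion protein (median 4113, n = 6), were 3322, 4748, 4965, 4172 and 4079 with the combination, and were 3234, 3342, 3484, 3448 and 3052 with vehicle. The fusion protein libraries were closely spaced and all above vehicle, while combination replicate 1 lay within the vehicle range and the other 4 above it. Tac1 rose by 0.29 ± 0.08 with the fusion protein (adjusted p = 0.012) and by 0.34 ± 0.08 with the combination (adjusted p = 0.00399). The fusion protein minus combination difference was -0.05 (interval -0.22 to 0.12).

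Adcyap1 (ENSMUSG00000024256, chromosome 17, 93199017 to 93206537) encodes PACAP, a peptide of nociceptors that acts through cyclic AMP. It had scaled values of 1421 to 2309 (median 1594) with the fusion protein, 1482, 1986, 1928, 1676 and 1919 with the combination, and 1566, 1503, 1390, 1378 and 1345 with vehicle. Both treated groups overlapped vehicle, by 3 of 6 fusion protein libraries and 1 of 5 combination libraries. Adcyap1 rose with the combination by 0.30 ± 0.11 (adjusted p = 0.0337). With the fusion protein it differed by 0.22 ± 0.10 and did not pass (adjusted p = 0.107), and the difference between the treated groups was -0.07 (interval -0.28 to 0.14). The call for the combination ended without combination replicate 2, 3 or 5 and without vehicle replicate 3, 4 or 5, with differences of 0.26 to 0.29 and adjusted p of 0.0576 to 0.0857.

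Gal (ENSMUSG00000024907, chromosome 19, 3409915 to 3414544, minus strand) encodes galanin. Its scaled values were 132 to 249 with the fusion protein (median 182, n = 6), 171, 129, 162, 164 and 163 with the combination, and 147, 94, 133, 78 and 115 with vehicle. In each treated group 1 library lay within the vehicle range and the rest above it. Gal rose by 0.43 ± 0.10 with the fusion protein (adjusted p = 0.00519), a ratio of mean scaled values of 1.64, and by 0.29 ± 0.11 with the combination (adjusted p = 0.0395). The combination call ended without any single one of 7 libraries (vehicle replicates 2, 4 and 5 and combination replicates 1, 3, 4 and 5), with differences of 0.22 to 0.30 and adjusted p of 0.0589 to 0.106. Fusion protein minus combination was 0.14 (interval -0.08 to 0.35).

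The other nerve-injury peptides stayed near the floor. Npy, encoding neuropeptide Y, had scaled values of 2, 28, 7, 4, 5 and 10 in fusion protein replicates 1 to 6, 1 to 4 with the combination and 2 to 7 with vehicle. Replicate 2 of the fusion protein group was the highest of the 16 libraries. Vip, encoding vasoactive intestinal peptide, stayed at scaled values of 1 to 5 in both treated groups and 1 to 4 in vehicle. Neither gene was tested. When the filter was dropped, Npy differed by 0.19 with the fusion protein and -0.04 with the combination, with adjusted p of 0.156 and 0.829, and Vip by 0.01 in both, with 0.953 and 0.907.

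Of the 2 itch-class genes, Nppb rose with both treatments and Sst passed in neither comparison with vehicle. Nppb (ENSMUSG00000029019, chromosome 4, 147985788 to 147987205) encodes natriuretic peptide B, the itch transmitter of these neurons in mice. It had scaled values of 181 to 302 with the fusion protein (median 232, n = 6), 369, 215, 232, 253 and 285 with the combination, and 167, 157, 154, 159 and 134 with vehicle. Vehicle libraries were closely spaced, and every treated library lay above them. The rise was 0.38 ± 0.11 with the fusion protein (adjusted p = 0.0128; ratio of mean scaled values 1.52) and 0.53 ± 0.11 with the combination (adjusted p = 0.0011; ratio 1.76). The treated groups differed by -0.15 (interval -0.37 to 0.07), which did not pass.

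Sst (ENSMUSG00000004366, chromosome 16, 23889573 to 23890958, minus strand) encodes somatostatin, an inhibitory peptide. Its scaled values ran from 59 to 99 with the fusion protein (median 82.5), were 120, 102, 62, 78 and 99 with the combination, and were 128, 94, 95, 108 and 72 with vehicle. All 3 groups overlapped. The log2 difference from vehicle was -0.15 with the fusion protein (interval -0.35 to 0.05) and -0.06 with the combination (interval -0.27 to 0.15), and neither passed. Once trends with GC content and gene length were removed from each library, Sst was lower with the fusion protein than with vehicle by a log2 difference of -0.33 (adjusted p = 0.0106).

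Vgf (ENSMUSG00000037428, chromosome 5, 137026392 to 137033351) gave the largest difference of the 8 genes, and it passed in the comparisons that include the combination. It had scaled values of 405 to 810 with the fusion protein (median 518, n = 6), 237, 246, 281, 236 and 305 with the combination, and 1240, 597, 495, 375 and 550 with vehicle. The combination group lay below every library of the other 2 groups, and vehicle replicate 1 was the highest of the 16. Vgf fell with the combination against vehicle by 0.95 ± 0.20 on the log2 scale (adjusted p = 0.00217), a ratio of mean scaled values of 0.401. Without vehicle replicate 1 the difference was -0.72 and still passed. With the fusion protein it differed from vehicle by -0.14 (interval -0.55 to 0.28; adjusted p = 0.642), or 0.09 without vehicle replicate 1. Set against the combination, the fusion protein group was higher by 0.81 ± 0.20 (adjusted p = 0.0108), a ratio of mean scaled values of 2.10. That is the one difference between the treatments that passed among the 8 genes.

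**Figure D3:**
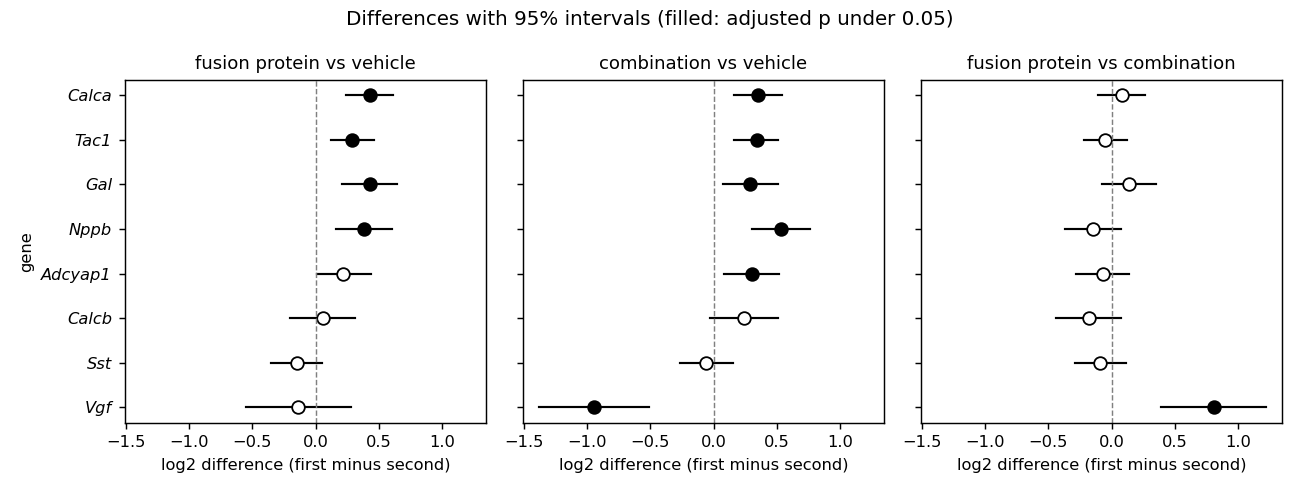
Log2 differences of the 8 tested genes with 95% intervals in each of the 3 comparisons (first group minus second); filled circles passed an adjusted p of 0.05. Calca, Tac1, Gal and Nppb pass in both comparisons with vehicle, and Vgf passes in both comparisons that include the combination (-0.95 and 0.81).

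These differences changed when trends with GC content and gene length were removed from each library, and with the sample number in the labels. That number runs from 12 to 19 for all 5 combination libraries, for fusion protein replicates 5 and 6 and for vehicle replicate 5; the labels do not call it a batch. With trends removed, the fusion protein difference of Calca was 0.24 (adjusted p = 0.029), of Tac1 0.18 (0.046) and of Gal 0.27 (0.00775), and that of Nppb was 0.18 and did not pass (0.211). With the label number added to that fit, Calca (0.21, adjusted p = 0.0239) and Gal (0.26, 0.00986) passed, and Tac1 (0.18, 0.0521) and Nppb (0.21, 0.134) did not. For the combination, Calca and Tac1 did not pass after this step (0.17 and 0.10, adjusted p = 0.122 and 0.305), nor after quantile normalization (0.13 and 0.16, adjusted p = 0.309 and 0.0831). Gal (0.32), Nppb (0.47), Adcyap1 (0.30) and Vgf (-0.71) passed with the trends removed, and Adcyap1 did not pass after quantile normalization (0.19, adjusted p = 0.135). A covariate for the late label numbers gave Calca and Gal values that did not pass for the combination (0.16 and 0.12, adjusted p = 0.259 and 0.516), and with trends removed in addition Vgf was at -0.55 for the combination (adjusted p = 0.165) and at 0.49 for fusion protein against combination (0.175). Samples numbered 12 to 19 hold 5 combination libraries and 1 vehicle library, whose spread can only be borrowed from the other groups, so their differences are given as values with no test: 0.24 for Calca, 0.45 for Tac1, 0.38 for Adcyap1, 0.27 for Gal, 0.65 for Nppb and -0.83 for Vgf. Nppb was higher with the combination at 0.44 to 0.79 and passed under each alternative run that kept 4 or more vehicle libraries. Among samples numbered 1 to 8 alone, 4 fusion protein against 4 vehicle libraries, Calca (0.35), Tac1 (0.27) and Nppb (0.37) passed and Gal (0.32, adjusted p = 0.087) did not.

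**Figure D4:**
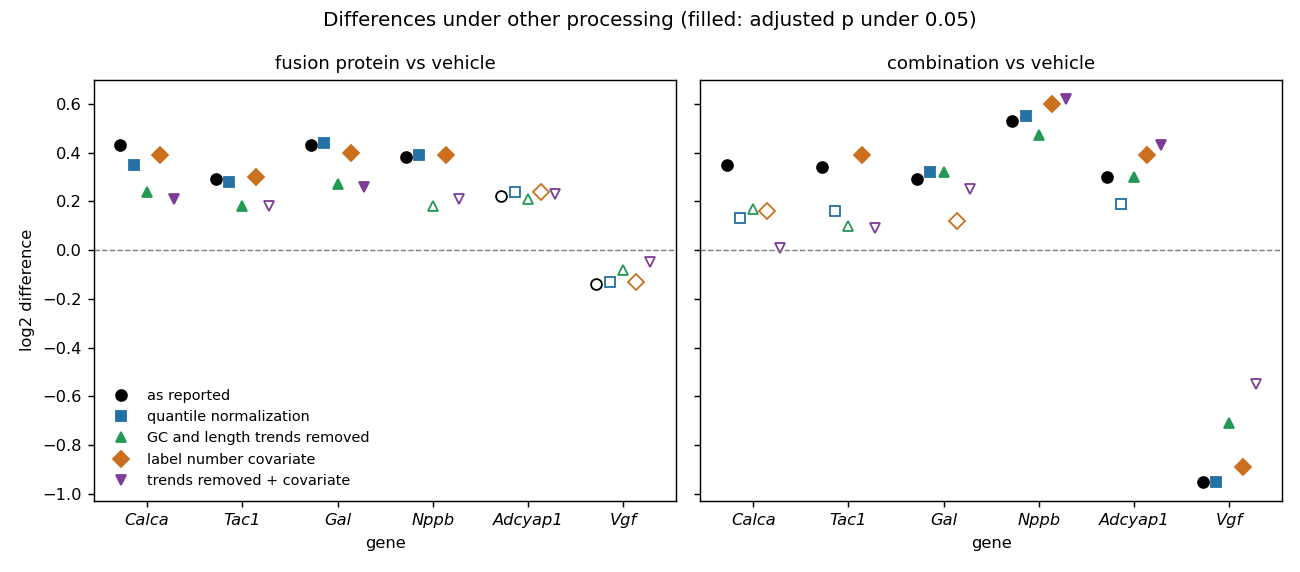
Log2 differences from vehicle of 6 genes with the fusion protein (left) and the combination (right) as reported and under 4 other ways of processing; filled symbols passed an adjusted p of 0.05. For the combination, Calca runs from 0.35 as reported to 0.01 with trends removed and the label number as covariate, while Nppb stays between 0.47 and 0.62 in these 5 fits.

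Of a list of 30 other peptide precursors, 6 were abundant enough to be tested. With the fusion protein 4 of them rose, 0 fell and 2 did not pass, with a median log2 difference of 0.34 beside -0.02 over all tested genes. Those that rose were Nts, encoding neurotensin, by 0.36 ± 0.08 (adjusted p = 0.00264), Penk, the enkephalin precursor, by 0.48 ± 0.11, Adm, encoding the vasodilator adrenomedullin, by 0.39 ± 0.10 and Nmb, encoding the itch and pain peptide neuromedin B, by 0.32 ± 0.09. With the combination 3 rose and 0 fell (median 0.24 beside 0.06), Nts by 0.52 ± 0.08 (adjusted p = 0.000104), Nmb by 0.39 ± 0.10 and Penk by 0.33 ± 0.11. The shares passing were 66.7% with the fusion protein and 50% with the combination, beside 25.8% and 36.5% of all tested genes. Between the treated groups 29.5% of all tested genes passed and 0 of the 6 did by limma. At an unadjusted p under 0.05, 1 of the 6 was higher and 1 lower. With GC and length trends removed the counts were 2 higher and 1 lower with the fusion protein, and 1 higher and 1 lower with the combination. Over all genes, trends removed gave 3428, 3492 and 1568 called of 13370 (fusion protein against vehicle, combination against vehicle, fusion protein against combination). As reported these all-gene counts were 3450, 4891 and 3950 of 13385.

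Among 17 tested genes of granins and dense-core vesicles, the organelles that store these peptides, 1 rose and 3 fell with the fusion protein (median -0.02), and 9 rose and 1 fell with the combination (median 0.24), which quantile normalization turned to 4 higher and 4 lower. As reported, 23.5% of the 17 passed with the fusion protein and 58.8% with the combination, beside 25.8% and 36.5% of all tested genes. Scg2, encoding the granin secretogranin II, rose with both, by 0.46 ± 0.08 (adjusted p = 0.000599) with the fusion protein and by 0.61 ± 0.09 (4.03e-05) with the combination. Ptprn, a vesicle membrane protein, fell with both, with log2 differences of -0.36 ± 0.09 under the fusion protein and -0.56 ± 0.09 under the combination. Syt7, a calcium sensor of exocytosis, and the vesicle SNARE Vamp2 fell with the fusion protein (-0.48 ± 0.09 and -0.52 ± 0.13). With the combination, Scg5, a chaperone of a prohormone convertase, rose by 0.34 ± 0.06, the SNARE Snap25 by 0.43 ± 0.09 and the vesicle-priming factor Cadps2 by 0.35 ± 0.08. Fusion protein against combination gave 0 higher and 8 lower (median -0.21 beside -0.09 over all genes), among them Snap25 (-0.35 ± 0.09) and Cadps (-0.30 ± 0.08). The 8 were 47.1% of the 17, beside 29.5% of all tested genes. With trends removed the counts were 2 higher and 2 lower for the fusion protein, 5 higher and 1 lower for the combination, and 0 higher and 3 lower between the treatments, where quantile normalization gave 1 higher and 1 lower.

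Of 16 tested enzymes that process or degrade peptides, 1 rose and 2 fell with the fusion protein (median 0.02), and 5 rose and 2 fell with the combination (median 0.20). These shares were 18.8% and 43.8%, beside 25.8% and 36.5% of all tested genes. With trends removed the counts were 2 higher and 0 lower with the fusion protein, so that neither fall was called, and 5 higher and 1 lower with the combination. Ctsl, cathepsin L, rose by 0.44 ± 0.07 with the fusion protein (adjusted p = 0.000161) and by 0.51 ± 0.07 with the combination (2.85e-05). Furin, a convertase of the secretory pathway, fell by 0.31 ± 0.11 with the fusion protein and by 0.65 ± 0.12 with the combination, and Pcsk5, a related convertase, fell with the fusion protein by 0.33 ± 0.08. Pcsk1, the convertase of dense-core vesicles, rose with the combination by 0.39 ± 0.08, as did Ide, a peptide-degrading enzyme, by 0.30 ± 0.07 and Qpct, glutaminyl cyclase, by 0.22 ± 0.07. Ece1, endothelin-converting enzyme, fell with the combination by 0.33 ± 0.07. Against the combination, the fusion protein group gave 2 higher and 6 lower (median -0.12), with Pam, which amidates the C terminus of peptides such as CGRP and substance P, at -0.32 ± 0.08. In that comparison 50% of the 16 passed, beside 29.5% of all tested genes. There, quantile normalization gave 2 higher and 2 lower, and with trends removed 0 of the 16 passed by limma, with 1 higher and 2 lower at an unadjusted p under 0.05. Over all genes, 3950 were called in that comparison as reported, 2363 with quantile normalization and 1568 with trends removed.

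Of 30 listed receptors for these peptides 15 were tested, of which 2 rose and 3 fell with the fusion protein (median -0.02), and 4 rose and 1 fell with the combination (median 0.12). In each comparison with vehicle 33.3% passed, beside 25.8% of all tested genes with the fusion protein and 36.5% with the combination. For fusion protein against combination 1 was higher (C3ar1) and 3 were lower (Galr1, Npr3 and Adcyap1r1). These were 26.7% of the 15, beside 29.5% of all tested genes. Crcp, a component of CGRP receptor signalling, rose by 0.29 ± 0.06 with the fusion protein (adjusted p = 0.00144) and by 0.40 ± 0.06 with the combination (8.56e-05). The CGRP receptor genes Calcrl and Ramp1 passed in none of the 3 comparisons. C3ar1, a complement receptor of myeloid cells that a peptide cut from Vgf also binds, rose with the fusion protein against vehicle by 0.73 ± 0.17 and was 0.75 ± 0.17 above the combination. Beside it, 2 of 6 macrophage markers, Aif1 and Cd68, were higher in the same comparisons. Against vehicle they differed by 0.47 ± 0.09 and 0.75 ± 0.16, and against the combination by 0.35 ± 0.09 and 0.81 ± 0.16. With trends removed Aif1 did not pass against the combination (0.20, adjusted p = 0.181). Csf1r passed against vehicle only (0.43). Adgre1, Mrc1 and C1qa passed in neither comparison, and Mrc1 was at -0.34 against the combination. The part of macrophages in the C3ar1 difference was not tested. Galr1, a galanin receptor, was lower with the fusion protein than with vehicle (-0.36 ± 0.09, adjusted p = 0.00543) and than with the combination (-0.48 ± 0.09, 0.00251). The PACAP receptor Adcyap1r1 was lower in the same comparisons (-0.23 ± 0.08 and -0.27 ± 0.08, adjusted p = 0.049 and 0.0223). Npy2r, a receptor of neuropeptide Y, rose with the combination by 0.33 ± 0.09, as did Npr3, the natriuretic peptide clearance receptor, by 0.32 ± 0.10 and Ramp2, a partner of the adrenomedullin receptor, by 0.33 ± 0.11. Npr2, a natriuretic peptide receptor, fell with the fusion protein (-0.35 ± 0.06) and with the combination (-0.22 ± 0.06). With trends removed 1 receptor was higher and 3 lower with the fusion protein, and 2 were higher and 0 lower with the combination. Between the treatments, trends removed gave 1 higher and 3 lower.

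The list of regulators coupled to activity and nerve injury had 13 tested genes, of which 1 rose and 3 fell with the fusion protein (median -0.02) and 1 rose and 6 fell with the combination (median -0.34). These shares were 30.8% and 53.8%, beside 25.8% and 36.5% of all tested genes. Between the treatments 1 of the 13, Jun, was higher and 0 were lower, 7.69% beside 29.5% of all tested genes. Crtc1, a coactivator of CREB, fell by 0.47 ± 0.07 with the fusion protein and by 0.53 ± 0.07 with the combination, and Gap43, a growth-cone protein, rose by 0.32 ± 0.08 with the fusion protein and by 0.34 ± 0.08 with the combination. Crtc2, a second such coactivator, fell by 0.30 ± 0.08 in both comparisons, and Nr4a1, an immediate early gene, fell by 0.36 ± 0.11 with the fusion protein and by 0.50 ± 0.11 with the combination. Jun, a subunit of AP-1, fell with the combination against vehicle by 0.69 ± 0.18 (adjusted p = 0.00668) and was higher by 0.66 ± 0.17 with the fusion protein than with the combination (0.0138). Jun was also the gene whose log2 values over the 16 libraries were most like those of Vgf (Pearson r = 0.945), followed by Sema6b (0.935). For Calca these genes were Psmd13 (0.975) and Ndufa1 (0.958), for Gal Tbcb and Chchd6 (both 0.947), for Nppb the ribosomal genes Rpl17 and Rps6 (both 0.935), for Tac1 Taf7 (0.919) and Tmem14a (0.914), for Adcyap1 Slc2a3 (0.893) and Dek (0.888), for Calcb Tuba4a (0.905) and Gpr180 (0.9) and for Sst Tie1 (0.818) and Fam101a (0.788). These values are descriptions over 16 libraries that share treatment, scaling and any lean on length and GC content. With trends removed, 0 regulators rose and 3 fell with the fusion protein, 0 rose and 2 fell with the combination, and between the treatments 0 passed by limma, with 2 higher and 0 lower at an unadjusted p under 0.05.

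Markers of other cells were set beside these changes. Of all tested genes, 25.8% passed with the fusion protein and 36.5% with the combination against vehicle, and 29.5% between the treatments. Satellite glia, the cells that wrap the neurons, gave 4 of 6 markers higher with the combination than with vehicle, Fabp7 by 0.84 ± 0.15 among them, and their summed scaled value was 42955 to 78393 with the fusion protein, 50469 to 59897 with the combination and 42070 to 60932 with vehicle. Of 6 Schwann cell markers 0 passed with the fusion protein, at an adjusted or an unadjusted p under 0.05 by limma, and 1, Pmp22, rose with the combination; they summed to 60875 to 83476 with the fusion protein, 61898 to 83222 with the combination and 55829 to 87706 with vehicle. Of 4 tested neutrophil markers 0 passed by limma in the 3 comparisons, with 1 higher at an unadjusted p under 0.05 with each treatment, and the listed 6 summed to 1873 to 6219 with the fusion protein, 2588 to 4128 with the combination and 1464 to 3926 with vehicle. Of 6 endothelial and fibroblast markers, Pecam1 and Dcn rose and Col1a1 fell in both comparisons with vehicle, and their sums were 12775 to 16137 with the fusion protein, 14661 to 20349 with the combination and 11527 to 14061 with vehicle. Of 6 macrophage markers 3 rose with the fusion protein and 1 with the combination, and they summed to 1742 to 2710 with the fusion protein, 1557 to 2313 with the combination and 1209 to 2201 with vehicle. Of the spinal cord glia markers, Olig2 stayed at the floor in each group and Mog in the combination group, while Gfap, a protein of astrocytes and reactive satellite glia, was 1.96 ± 0.57 higher with the fusion protein than with the combination. Against vehicle Gfap passed with neither the fusion protein (0.88, adjusted p = 0.275 by limma) nor the combination (-1.09, 0.169). Aqp4, Slc1a3 and Aldh1l1 passed in none of the 3 comparisons. The 6 spinal cord glia markers summed to 1274 to 2688 with the fusion protein, 1264 to 1369 with the combination and 1190 to 1814 with vehicle. The part of these cells in the peptide differences was not tested.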

How the data were processed

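Polyadenylated RNA of DRG was sequenced in 16 samples, grouped by the sample titles. Per the submitters' processing notes, FastQC, STAR, HTSeq and DESeq2 were used with build GRCm38; versions and settings are not given in the sources used here. The authors deposited 1 table of variance-stabilised log2 values per gene and sample, with GC content in percent per the file headers, and a p-value and adjusted p-value deposited for a comparison the headers do not name, which were not used. The transform, estimated on the 60 lowest among 11441 different values, gave whole numbers within 0.01 for 100% of values, which are printed as scaled values. They had been scaled by an unstated step, so depth is unknown and no counting interval is given.

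Genes were tested where the mean log2 value was at least 1 above the lowest of the table (5.99), which left 13385 genes. The test was limma 3.58.1 in R 4.3.3, with 1 model of all 16 libraries, trend and robust variance, two-sided, and p-values were adjusted by Benjamini and Hochberg across the 13385 genes (threshold 0.05). Differences are first minus second group, with the SE of limma. Near the floor the transform compresses them. Exonic lengths and coordinates came from GENCODE M21 (GRCm38), and per-kb levels divide by exonic length. Lists and members were chosen with earlier results of these data known. Genes named from a list are up to 4 called members of lowest p per comparison, further cell markers excepted; for each tested member the 2 genes of highest correlation are named. The script was tested on simulated data. Python 3.11.15 and scipy 1.17.1 gave the permutation tests. Alternatives were other filters, normalizations and variance models, the decoded scale, removal of GC and length trends (splines with 4 degrees of freedom), the label number, a replicate block and omission of each library.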

Additional observations from a re-analysis of the deposited data

Results flagged for a closer look

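Among 30 groups of values (10 genes in 3 groups), 2 held a library far from the others of its group; chance flags about 1 in 20. Gal in combination replicate 2 had a log2 value of 7.90 (scaled value 129), the lowest of its group, where the other 4 lay between 8.10 and 8.15. Npy in vehicle replicate 5 had a log2 value of 6.47 (scaled value 7), the highest of its group, where the other 4 lay between 6.25 and 6.30.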

How the results depend on the processing

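The number of the 8 genes called with the fusion protein against vehicle was 4, and it was 4 under every omission of a library. It was 0 among samples numbered 12 to 19 (2 against 1 library, the lone one assumed to vary like the others) and 2 (1 higher, 1 lower) with GC and length trends removed and a replicate block, where Calca (0.20, adjusted p = 0.0703), Tac1 (0.18, 0.0803) and Nppb (0.18, 0.264) were not called. For the combination against vehicle the count was 6, and 4 to 6 over the omissions. It was 3 with quantile normalization, 2 among samples numbered 12 to 19 (5 against the same 1 library, so no support), and 2 with trends removed and the late label number as covariate. For fusion protein against combination the count was 1, also over the omissions, 2 among samples numbered 12 to 19 (Vgf, and Gal at 0.36; 2 against 5 libraries), and 0 with trends removed and the late label number. For the other settings these counts stayed within 1.5 times, though the genes called could change. With GC and length trends removed alone, the fusion protein against vehicle gave 3 higher and 1 lower, where Sst was called lower and Nppb was not called. The cause was not tested. Sst lay below the stricter filter, which also left fewer receptors tested (1 higher and 1 lower with the fusion protein against vehicle, and 0 against the combination).

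Directions turned in genes that had not passed. Calcb against vehicle with the fusion protein was -0.01 with the replicate block, -0.04 among samples numbered 1 to 8, -0.13 with trends removed, -0.16 with the label number in addition and -0.19 with the block in addition, and -0.01 to 0.14 over the omissions. Vgf in that comparison was -0.27 to 0.09 over the omissions, and Sst was 0.20 among samples numbered 12 to 19. For the combination against vehicle, Calcb was -0.05 and Sst 0.0007 with trends removed and the label number, Sst was 0.16 among samples numbered 12 to 19 and -0.12 to 0.01 over the omissions, and Calca minus Calcb was -0.01 with quantile normalization. For fusion protein against combination, Tac1 was 0.12 with quantile normalization, 0.09 with trends removed, 0.09 with the label number in addition, 0.08 with the block in addition and -0.13 to 0.01 over the omissions. There, Adcyap1 was 0.05 with quantile normalization, Calcb 0.0004 with the label number and 0.06 among samples numbered 12 to 19, Sst 0.04 among those samples, and Gal -0.05 with trends removed and -0.08 with the block in addition. With trends removed Calca minus Calcb passed in this comparison (0.32, exact permutation, adjusted p = 0.0325).

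No label says that replicate numbers pair the samples, and the correlations of deviations do not decide it. Same-numbered libraries correlated over 0.1 in 3, 3 and 1 of 5 pairs (fusion protein with vehicle, combination with vehicle, fusion protein with combination). Their r ran from -0.2 to 0.46, -0.15 to 0.6 and -0.15 to 0.45, beside medians of 0.011, -0.065 and 0.029 for other pairs. A library correlated best with its own number in 9 of 30 checks, each among 5 or 6 libraries. With the replicate block alone 4, 6 and 1 of the 8 genes were called in those comparisons, as without it, and 3216, 5195 and 3429 of all genes against 3450, 4891 and 3950. Among all genes, 984 were higher and 2966 lower for fusion protein against combination, but 975 and 1388 with quantile normalization, and 660 and 908 with GC and length trends removed. Leaving out fusion protein replicate 1 and vehicle replicate 1 together, chosen after seeing the data, kept the 4 calls (Calca 0.49, Tac1 0.28, Gal 0.54, Nppb 0.34).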
